A study of Mus musculus with 12 samples.

Results

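The polyamine synthesis genes studied here were Odc1, Oaz1, Oaz2, Azin1, Amd1, Srm, Sms and Sat1, 8 genes chosen by name because Odc1, an enzyme gene known to respond to growth factors, was detected in every exosome sample. Of these, 7 genes were represented by 9 probes, out of 16593 named genes and 25696 probes on the array, and Amd1 had 0 probes under its own name. The detection of Odc1 on all 12 arrays was thus a reason for the choice and is given as a description. Exosomes are vesicles released when multivesicular bodies fuse with the plasma membrane, and their messenger RNA was measured after amplification and Cy3 labelling, with 1 MouseRef-8 BeadChip array per sample.

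Polyamines are small positively charged molecules that bind nucleic acids and are needed for cell growth. Ornithine decarboxylase, the product of Odc1, makes putrescine from ornithine as the first and rate-limiting step, and spermidine synthase (Srm) and spermine synthase (Sms) then add aminopropyl groups that S-adenosylmethionine decarboxylase (Amd1) provides. The antizymes (Oaz1 and Oaz2) bind ornithine decarboxylase and send it to the proteasome, the antizyme inhibitor (Azin1) releases it, and spermidine/spermine acetyltransferase (Sat1) starts the breakdown and export of polyamines. In the heart, ornithine decarboxylase activity is known to increase in hypertrophic growth.

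The vesicles came from HL-1 cells, a beating line derived from mouse atrial cardiomyocytes. The cells were left untreated (control, n = 4) or received 10 ng/mL TGF-β2 (n = 4) or 100 ng/mL PDGF-BB (n = 4) in serum-free medium for 23 h, and all groups had been grown in medium with ultracentrifuged serum and norepinephrine. Each sample was the medium of a single culture flask of this one cell line. The study counts the samples of a group as different flasks or experiments. The spread between samples thus holds that between flasks, any separate experiments, vesicle preparations and arrays. The arrays were on 2 chips, each of which held 2 arrays from every group. Chip 1 held control samples 2 and 3 and samples 1 and 4 of both growth factor groups, and chip 2 held the others.

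A probe was called detected where its deposited detection p-value, which is the share of that array's negative controls that were brighter, was under 0.01. The number of detected probes ran from 294 to 1506 per array. PDGF-BB sample 1 (median correlation with the remaining arrays 0.232) and control sample 1 (0.525) stood apart, while the rest had 0.654 to 0.816. The study left a PDGF-BB sample out for poor hybridization without naming it in the sources used here, and every array was kept. The cardiomyocyte markers Myl4 and Atp2a2 were detected on 11 arrays each, while Nppa, Actc1, Tnni3 and Ryr2 were detected on 0, so that 7 of 11 markers on the array were seen at least once, with summed signals of 316 to 2061 in control, 678 to 3379 with TGF-β2 and 307 to 2887 with PDGF-BB. Of the exosome markers, counted here by transcript and not by protein, 2 of 6 were seen, Hspa8 on 11 arrays and Cd63 on 1. By Western blot the study found the proteins CD63 and TSG101 in its exosome samples, which these arrays do not measure. Fibroblast markers were seen for 2 of 5 genes, Dcn on 2 arrays and Col3a1 on 1, with summed signals of 44.9 to 131 in control, 54.1 to 110 with TGF-β2 and 18.2 to 158 with PDGF-BB. Endothelial (0 of 4), leucocyte (0 of 3) and erythroid (0 of 1) markers were not detected.

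Odc1 was the 1 member detected on all 12 arrays, which held for 26 of all probes (0.101%). Oaz2 was detected on 3 arrays, which 4.28% of all probes reached. Oaz1, Azin1, Srm, Sms and Sat1 were detected on 0 arrays, where 13% of all probes were detected on at least 1. Of the 108 readings of the 9 probes, 15 were detected, and 12 of these were the Odc1 readings that led to the choice of the genes. Without Odc1 it was 3 of 96 readings (3.12%), near the 2.80% of all readings on the arrays.

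**Figure D1:**
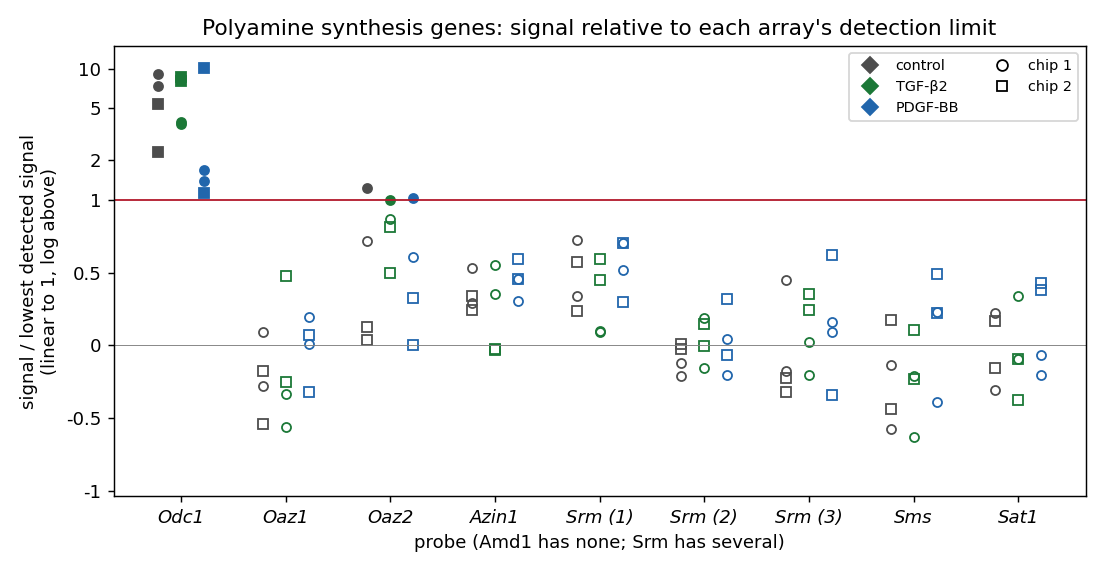
Scanner signal of each of the 9 probes on each of the 12 arrays, divided by the lowest detected signal of the same array (vertical axis, linear up to 1 and logarithmic above). Filled symbols were detected, circles are chip 1 and squares chip 2. Odc1 lay between 1.13 and 10.2 times the limit, Oaz2 reached 1.24 and all other probes stayed under the red line.

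In control exosomes the Odc1 probe gave scanner signals of 122, 611, 689 and 356 in samples 1 to 4, in arbitrary units of mean bead brightness after background subtraction. With TGF-β2 they were 286, 406, 521 and 277. With PDGF-BB they were 110, 68.5, 591 and 140. The groups overlapped, since PDGF-BB sample 3 was as bright as the brighter control samples while the other PDGF-BB samples lay near or below the dimmest control sample, and the TGF-β2 samples were the most alike. The group means were 445 ± 258, 372 ± 115 and 227 ± 244 (SD, n = 4 each).

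The bead error within an array covers the reading of 1 array and not the spread between flasks. The probe was read on 20 to 45 beads per array, and the standard error over beads was 5.41% to 25.7% of the signal, with a median of 8.38%. It was largest in PDGF-BB sample 1 (110 ± 28.3), which is not told apart by it from control sample 1 (122 ± 18.3) or PDGF-BB sample 4 (140 ± 17.2). Over the 12 arrays the signal spanned a 10.1-fold range. The probes detected on all arrays had a median range of 14.1-fold, and Odc1 was 20th of the 26 by this range. Its detection p-value was 0 on 11 arrays and 0.00376 in PDGF-BB sample 2, where the signal was 1.13 times the lowest detected signal of that array.

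**Figure D2:**
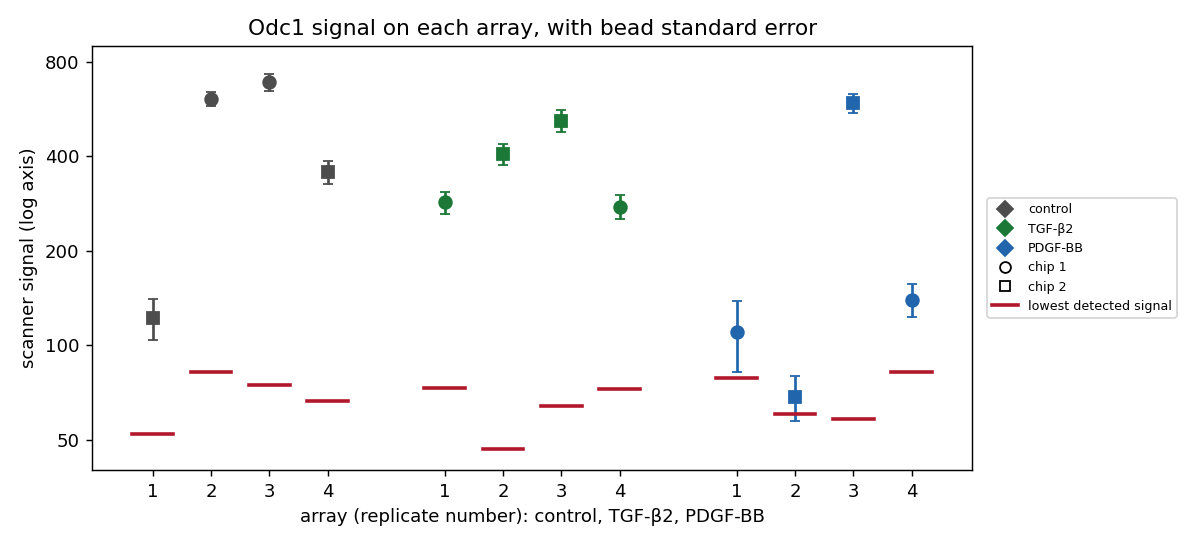
Scanner signal of Odc1 (log axis) on each array, by group and replicate number, with the standard error over beads. Red lines mark the lowest signal called detected on that array, between 46.9 and 82.4. PDGF-BB sample 2 lay closest to its line and PDGF-BB sample 3 farthest above it.

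Within each array Odc1 was among the brighter probes. It ranked between 21st, in control sample 1, and 180th, in PDGF-BB sample 2, of the 25696 probes, with a median rank of 46.5. Signals of different probes also depend on how each probe hybridises, so the rank places a probe and does not order transcripts by copy number. Control sample 1 had the lowest signal of its group (122) and yet the best rank of all arrays, and TGF-β2 sample 3 had a high signal (521) and only the 103rd rank.

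The scanner signal of Odc1 followed the number of probes detected on the array. Over the 12 arrays, Pearson's r between the log2 signal and that number was 0.80 (permutation p = 0.0004, adjusted p = 0.0006 over 3 scales of Odc1) and Spearman's rho was 0.88 (permutation p = 0.0004, adjusted p = 0.0006). Without the 2 arrays farthest from the median number, control sample 3 and TGF-β2 sample 3, r was 0.84 (permutation p = 0.00084). On chip 1 alone r was 0.91 and on chip 2 alone 0.81 (exact permutation p = 0.00833 for both, n = 6 each). The relation was not particular to Odc1: the 26 probes detected on all arrays had a median r of 0.78, and Odc1 was 11th among them. The 4 arrays with the fewest detected probes, PDGF-BB samples 1, 2 and 4 and control sample 1, had the 4 lowest signals. Over the other 8 arrays r was 0.72 (exact permutation p = 0.0451).

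The normalization changed this relation. After quantile normalization, which gives all arrays the same distribution of values, r for Odc1 was −0.17 over the 12 arrays (permutation p = 0.575, adjusted p = 0.575) and rho was −0.08 (permutation p = 0.802, adjusted p = 0.802). It was −0.93 over the 8 arrays with the most detected probes (exact permutation p = 0.00233, not adjusted), where the level was lower on arrays with more detected probes. The PDGF-BB samples 1, 2 and 4, left out there, were low with few. These 8 arrays were picked by the number of detected probes itself, so no conclusion is drawn from this r. Without control sample 3 and TGF-β2 sample 3 r was 0.14 (permutation p = 0.771). On this scale the 26 probes detected on all arrays had a median r of −0.03 over the 12 arrays, and Odc1 was 15th among them. When all arrays were instead brought to one median (median scaling), r was 0.79 (permutation p = 0.00022, adjusted p = 0.0006) and rho was 0.92 (permutation p = 0.00016, adjusted p = 0.00048). In a preparation of vesicles, fewer vesicles and less of a transcript per vesicle cannot be told apart. These relations were examined after the values had been seen.

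**Figure D3:**
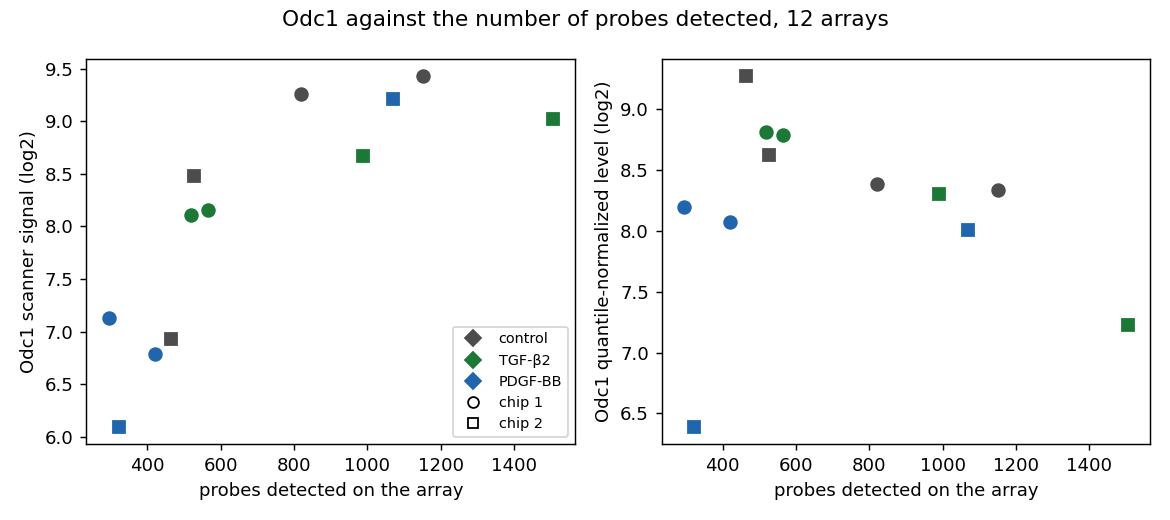
Odc1 on each of the 12 arrays against the number of probes detected on that array (294 to 1506). Left, log2 scanner signal, which was higher on arrays with more detected probes (r = 0.80). Right, quantile-normalized log2 level, which was lower on arrays with more detected probes apart from the 3 PDGF-BB arrays with the fewest (r = −0.17 over all). Colours are groups, circles chip 1 and squares chip 2.

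Whether treatment of the cells goes with another level of the Odc1 transcript in their exosomes was asked first for PDGF-BB. In control samples 1 to 4 the quantile-normalized log2 levels were 9.27, 8.39, 8.34 and 8.62. The corresponding levels with PDGF-BB were 8.07, 6.39, 8.004 and 8.19. On this scale all 4 PDGF-BB samples lay below all 4 control samples, which was so for 14 of the 1099 probes tested (1.27%), and for 1 of the 26 probes detected on all arrays (3.85%), which is Odc1 itself. The means were 8.65 ± 0.43 and 7.67 ± 0.85 (SD, n = 4 each). The difference was −0.99 ± 0.46 (log2 ± SE, 95% interval −1.99 to 0.01), a ratio of 0.50, and did not pass the test (limma adjusted p = 0.82), as the 53rd of 1099 probes by p. Without PDGF-BB sample 2 the difference was −0.56, and without control sample 1 it was −0.79. Without PDGF-BB sample 1 it was −1.14 and without PDGF-BB sample 4 it was −1.17, so it moved both ways and did not pass in any of these runs. Within the chips it was −0.23 on chip 1 and −1.75 on chip 2. By scanner signal, where 0.455% of the tested probes had all PDGF-BB samples below all control samples, Odc1 overlapped because PDGF-BB sample 3 was high.

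Median scaling gave a wider spread within the control and PDGF-BB groups. The log2 levels of Odc1 on that scale were 6.15, 9.04, 9.19 and 8.12 in control, 7.79, 8.59, 8.66 and 7.61 with TGF-β2 and 5.21, 5.16, 9.07 and 5.88 with PDGF-BB. Control sample 1 and PDGF-BB samples 1, 2 and 4 were low, and PDGF-BB sample 3 lay among the highest. The PDGF-BB difference from control was −1.80 (limma adjusted p = 0.926). In the authors' spline-normalized values, taken to log2, the control levels were 9.18, 8.56, 8.52 and 8.72. The PDGF-BB levels were 8.38, 6.81, 8.38 and 8.48, so that only the narrow margin between 8.52 and 8.48 kept the groups apart. The share of all probes with groups apart on this scale was not computed. The difference was −0.73 and did not pass (limma adjusted p = 0.93).

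For TGF-β2 the quantile-normalized log2 levels of Odc1 were 8.79, 8.30, 7.22 and 8.81 in samples 1 to 4, with a mean of 8.28 ± 0.74 (SD, n = 4). Samples 1 and 4 lay within the control range, sample 2 just below it and sample 3 well below it. The difference from control was −0.37 ± 0.46 (log2 ± SE, 95% interval −1.37 to 0.63, limma adjusted p = 1), an interval that holds changes in both directions. All TGF-β2 samples lay below all control samples for 0.273% of the tested probes, on the quantile-normalized scale as well as by scanner signal, and Odc1 was not among them. Its direction was not stable: it was 0.44 on chip 1, −1.18 on chip 2, 0.03 with median scaling and −0.01 without TGF-β2 sample 3.

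Between the growth factors, Odc1 was 0.62 ± 0.46 higher with TGF-β2 than with PDGF-BB (log2 ± SE, 95% interval −0.38 to 1.62), which did not pass (limma adjusted p = 0.83). The groups overlapped on both scales, where 1.55% of the tested probes by quantile-normalized level and 1.09% by scanner signal had all PDGF-BB samples below all TGF-β2 samples. The difference was 0.67 on chip 1 and 0.57 on chip 2. It was 0.19 without PDGF-BB sample 2 and 0.98 without TGF-β2 sample 3. The 3 comparisons share samples, so their differences are not independent of each other. PDGF-BB samples 1, 2 and 4 had 421, 322 and 294 detected probes, fewer than any other array (463 and more), and the part of this in the differences was not tested.

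**Figure D4:**
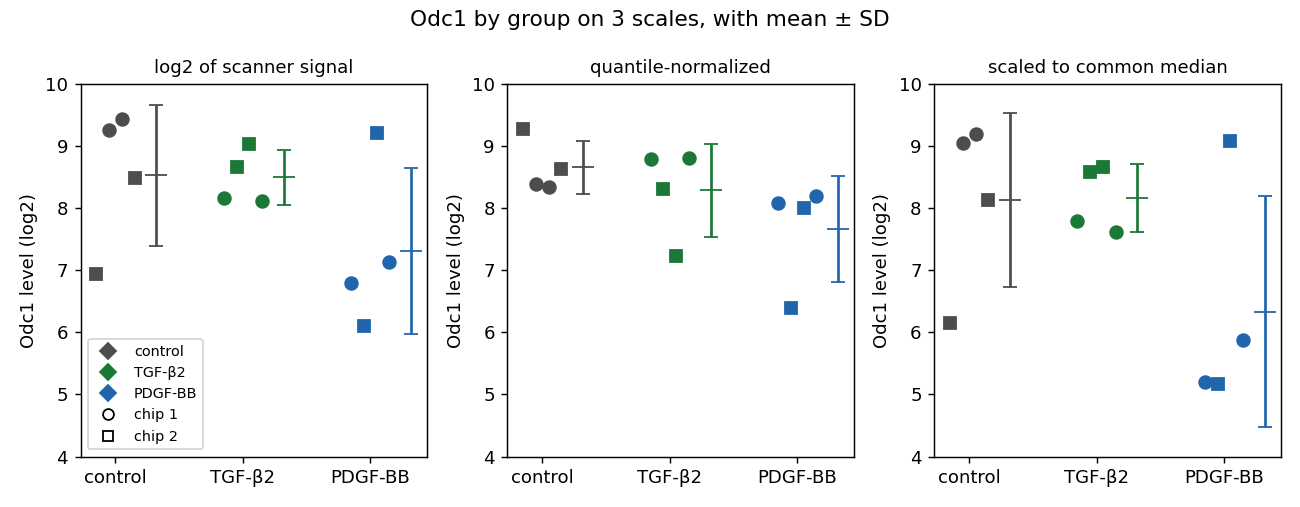
Odc1 in each sample by group on 3 log2 scales: the scanner signal, the quantile-normalized level and the median-scaled level. Bars give the mean ± SD (n = 4). All PDGF-BB samples lay below all control samples in the middle panel alone, and control sample 1 went from the lowest control sample on the outer panels to the highest there.

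For the background of these tests, limma called 0 of 1099 probes (0%) at an adjusted p under 0.05 in each of the 3 comparisons. At an unadjusted p under 0.05 it gave 8 probes (0.728%) for TGF-β2 against control, 48 (4.37%) for PDGF-BB against control and 52 (4.73%) for TGF-β2 against PDGF-BB. The 2 members that passed the filter of detection on at least 3 arrays, Odc1 and Oaz2, were in none of these counts. The median difference over all tested probes was 0.05, −0.06 and 0.14 on the log2 scale. The standard error of the Odc1 difference (0.46) was above the median standard error of all probes (0.34), and its residual SD (0.70) exceeded that of 69.5% of them.

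Antizyme 2 was the other member with any detection. The Oaz2 probe gave scanner signals of 1.76, 59.0, 92.8 and 8.54 in control samples 1 to 4. With TGF-β2 they were 73.1, 38.1, 31.9 and 63.0, and with PDGF-BB 47.7, 0.069, 19.1 and 85.3. It was detected in control sample 3, TGF-β2 sample 1 and PDGF-BB sample 4, at 1.24, 1.002 and 1.04 times the lowest detected signal, so that each group had 1 detected sample, close to the limit. Control averaged 4.87 ± 0.24 on the quantile-normalized log2 scale, TGF-β2 5.01 ± 0.19 and PDGF-BB 5.05 ± 0.60 (mean ± SD, n = 4 each). The differences from control were 0.14 ± 0.28 for TGF-β2 (limma adjusted p = 1) and 0.19 ± 0.28 for PDGF-BB (limma adjusted p = 0.947), within the spread between samples.

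The Oaz2 signals divided by chip and not by group. All 6 chip 1 signals, 47.7 to 92.8, lay above all 6 chip 2 signals, 0.069 to 38.1, and all 3 detections were on chip 1. Such a split in this direction was seen for 94 of the 1099 tested probes (8.55%) and 582 of all 25696 (2.26%). In limma with the groups as further terms, chip 1 exceeded chip 2 by 0.46 ± 0.18 on the quantile-normalized log2 scale (95% interval 0.06 to 0.87, adjusted p = 0.285), where 0 of 1099 probes (0%) passed and 154 had an unadjusted p under 0.05. Without the filter 0.265% of all probes passed, and Oaz2 was not among them (limma adjusted p = 0.182). With the authors' normalized values, where intensities under 16 were set to 16, the chip difference of Oaz2 was 1.40 (limma adjusted p = 0.0379), and 56 probes passed in all. In that run control samples 1 and 4 and PDGF-BB sample 2, all on chip 2, were at this floor. Oaz2 entered the filtered set through its chip 1 detections alone. The share of 8.55% and the filtered fits therefore favour such a split in advance, and no chip effect is concluded from them. The chips were compared after the split had been seen. For Odc1 the chip difference was 0.46 ± 0.36 (limma adjusted p = 0.56).

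The array annotation lists no probe for Amd1 and a single probe for Amd2, a related gene that also encodes S-adenosylmethionine decarboxylase. In RefSeq (GRCm38.p6) the 300-base windows around the start sites of both genes share a run of 48 identical bases, and whether the Amd2 probe also reads the Amd1 transcript was not tested, as the probe's sequence was not used here. The Amd2 probe was detected on 0 arrays. Its signals on chip 1 were 58.7 and 52.7 in control samples 2 and 3, 61.3 and 21.0 in TGF-β2 samples 1 and 4 and 1.20 and 16.01 in PDGF-BB samples 1 and 4. On chip 2 all 6 signals lay between −33.5 and 6.55. Both control samples and TGF-β2 sample 1 on chip 1 had the highest signals, at detection p-values of 0.0426, 0.0501 and 0.0226, which are not detections. These arrays were picked after the values had been seen. In the fit without the filter, Amd2 did not pass for PDGF-BB against control (limma adjusted p = 0.989).

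**Figure D5:**
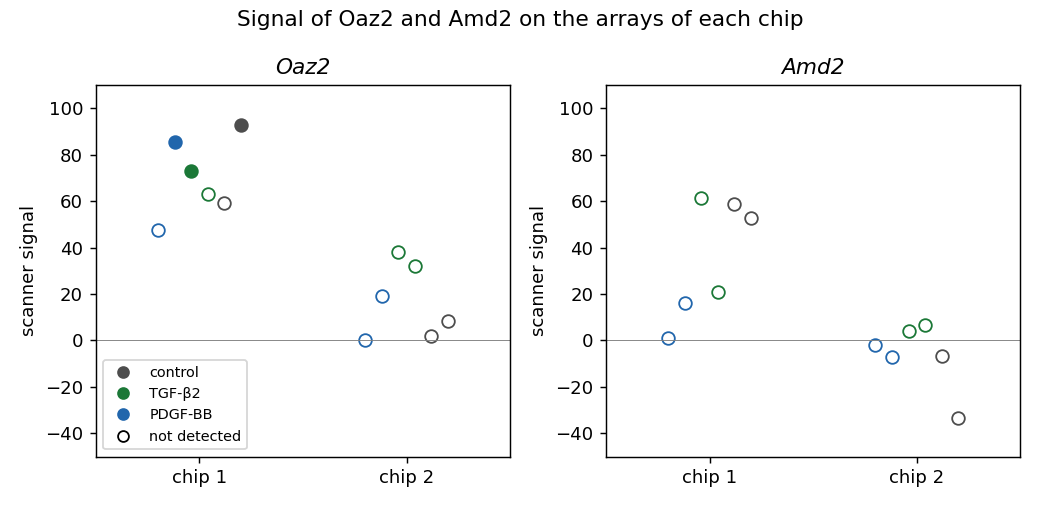
Scanner signal of Oaz2 (left) and Amd2 (right) on the 6 arrays of each chip, coloured by group, with filled symbols where the probe was detected. All Oaz2 signals on chip 1 lay above those on chip 2, while the Amd2 signals of the chips overlapped between 1.20 and 6.55.

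The remaining members gave signals at background, and no fold between groups is given for them. Oaz1, the main antizyme, had signals from −40.8 to 22.4 with a median of −12.7, below 0 on 7 of 12 arrays. Control averaged −15.5 ± 18.3, TGF-β2 −14.7 ± 26.8 and PDGF-BB 0.33 ± 14.5 (mean ± SD, n = 4 each), all overlapping. Azin1, a catalytically inactive relative of ornithine decarboxylase that captures antizyme, had 25.0 as its median and reached 40.2, or at most 0.59 of the lowest detected signal on any array. Its group means were 24.7 ± 11.1, 15.8 ± 20.8 and 31.0 ± 6.74 (SD, n = 4 each) in the same order, all overlapping. Both regulators lay under the limit on all 12 arrays, as did most probes, since 13% of all probes were detected on at least 1. Odc1 was chosen for its detection on every array, so no contrast with it is drawn.

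The spermidine synthase gene Srm had 3 probes, and they differed. The brightest had a median signal of 28.4 and reached 57.8 in PDGF-BB sample 4 and 54.2 in control sample 3, at detection p-values of 0.0238 and 0.0476. The other Srm probes had medians of −0.83 and 4.31. Sms, the next enzyme, ranged from −45.8 to 28.4 and Sat1, the acetyltransferase, from −23.2 to 25.0, each below 0 on 7 arrays. Group means of Sms were −16.4 ± 22.8 in control, −16.3 ± 21.9 with TGF-β2 and 7.45 ± 26.2 with PDGF-BB, and those of Sat1 were −0.54 ± 18.7, −1.47 ± 18.2 and 6.37 ± 20.8 (SD, n = 4 each), with overlap between all groups. At a detection p under 0.05 Srm would join Odc1 and Oaz2, and 3 members would count as detected on at least 1 array. The share of all probes that reach 1 array at this threshold was not computed. More readings pass by chance at 0.05, so this count is not read as detection of Srm. A signal under the limit says that the transcript was not detectable at the sensitivity of these arrays and not that it was absent from the vesicles.

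The wider set of polyamine genes held 29 genes, of which 22 were on the array with 35 probes, covering ornithine supply (Arg1, Arg2, Oat, Otc), further ornithine decarboxylase regulators (Oaz3, Azin2), methionine salvage (Mtap), oxidation (Smox), the hypusine pathway that uses spermidine to modify the translation factor Eif5a, transport (Slc3a2, Atp13a2) and the MYC-type regulators of Odc1. Of the 22 genes, 0 were detected on 3 or more arrays and 19 on none. By probe, 0 of 35 reached 3 arrays, beside 4.28% of all probes, and 3 of 35 (8.57%) reached 1, beside 13%, so that these shares were not far from those of the whole array. The other 3, named after their values were seen, were Mat2b, a regulatory subunit of the S-adenosylmethionine synthetase (78.2), Mtap, which recycles the methylthioadenosine left by polyamine synthesis (85.3), and Max, the partner of MYC (99.2). All 3 were detected on the same array, TGF-β2 sample 3, which had the most detected probes (1506) of the 12. Each of these 3 genes had a further probe or probes on the array, and those were detected on 0 arrays. Myc itself had 2 probes and was detected on 0 arrays.

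The 9 member probes were also fitted in limma without the filter, over all 25696 probes. None of the 9 passed at an adjusted p under 0.05. Odc1 alone of the 9 had an unadjusted p under 0.05, for PDGF-BB against control (limma adjusted p = 0.989). In that comparison 1061 of the 25696 probes had an unadjusted p under 0.05, and Odc1 was 977th by p. Of the 35 probes of the wider set, 0 passed in any comparison.

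The genes most like Odc1 over the 12 arrays were sought among 961 other genes that passed the filter, by Pearson's r of the quantile-normalized log2 levels. They were Zc3h14, which encodes a poly(A)-binding zinc finger protein (r = 0.67, rho = 0.83), Zfp251 (r = 0.66, rho = 0.62), Trim30d (r = 0.64, rho = 0.67), Lce3b (r = 0.63, rho = 0.66), Purb, a single-stranded nucleic acid binding protein (r = 0.62, rho = 0.55), and the ribosomal protein gene Rpl23 (r = 0.61, rho = 0.58). These are the highest of 961 values from 12 arrays that share their normalization, and are given as a description. Trim30d and Lce3b dropped to r = 0.27 and 0.38 with median scaling.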

How the data were processed

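The deposited scanner table gives, per the file headers, the mean bead intensity of each probe, its standard error over beads, the count of beads and a detection p-value. The authors' software had subtracted a background, as negative intensities show, and no normalization between arrays had been made. Detection p-values come in steps of 1 in 798, and at 0.01 about 257 probes per array are detected by chance. A second deposited table holds intensity normalized by the authors with cubic splines, which served as an alternative. The labels name GenomeStudio, with no version. Each array's ranks were equal in both tables.

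The log2 levels were computed here, as none were deposited by the authors: normexp background correction with negative control moments inferred from detection p-values, an offset of 16 and quantile normalization (neqc method, limma 3.58.1, R 4.3.3). Probes detected on at least 3 arrays were tested in 1 limma fit of all 12 arrays with group means, two-sided, with Benjamini-Hochberg adjustment over all 1099 probes and a threshold of 0.05. On simulated data for PDGF-BB against control over 1099 probes, 53.7% of log2 changes of 1, 86.6% of 2 and 100% of 4 were recovered. How the simulated spread compares with that of these arrays is not given, so these shares are not the power of the tests above. The Odc1 difference of −0.99 had a standard error of 0.46 and did not pass. Correlations were tested by permutation of samples (scipy 1.17.1, Python 3.11.15), and plots were drawn with matplotlib 3.10.9.

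Genes came from the platform annotation, where 23977 probes carry 1 symbol, 0 several and 1719 none. Of the probes, 23961 had an Entrez identifier that is in the reference annotation. The genome build of the array annotation is not given in the sources used here, and no coordinates are printed. The start windows of Amd1 and Amd2 were taken by symbol from the RefSeq table (GRCm38.p6). All probes of the 8 members are reported whatever their values, other polyamine genes by counts, and the 6 genes most like Odc1 by r. The members and lists were chosen with earlier results of these data known. The alternatives were other scalings, offsets, filters, array weights, the chip or the replicate number as a block, each chip alone and leaving out each array.

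Arrays give no counting error, and their number limits the precision.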

Additional observations from a re-analysis of the deposited data

Results flagged for a closer look

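Among 33 sets of 4 samples of one group examined for a sample far from its group, 3 samples stood out, where chance, at about 1 in 20 groups, gives about 1.65. For Odc1 with PDGF-BB, sample 3 had a scanner signal of 591, where the other 3 samples lay between 68.5 and 140. On the quantile-normalized log2 scale the sample that stood out was another, PDGF-BB sample 2, with 6.39 against 8.004 to 8.19 in the others. For one of the Srm probes, control sample 3 had a scanner signal of 33.8 against −16.8 to −14.4 in the other control samples, all of them under the detection limit.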

How the results depend on the processing

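No difference of Odc1 or Oaz2 between groups passed the test under any alternative run. Scaled to a common median, Odc1 for TGF-β2 against control turned from −0.37 to 0.034, and on chip 1 alone to 0.44. Under the other alternatives it stayed negative, between −1.18 on chip 2 alone and −0.01. For PDGF-BB against control Odc1 was −1.80 scaled to a common median. Leaving out each array gave −0.55 to −0.01 for TGF-β2 against control, −1.17 to −0.56 for PDGF-BB against control and 0.19 to 0.98 for TGF-β2 against PDGF-BB. Oaz2 turned to −0.11 for PDGF-BB against control and 0.14 for TGF-β2 against PDGF-BB with median scaling. In the latter comparison it was 0.42 with the authors' values, 0.17 on chip 2 and −0.19 to 0.063 when each array was left out (0.063 without TGF-β2 sample 3). It left the test whenever 1 of its 3 detecting arrays was left out. The chip difference of Odc1 turned to −0.17 with median scaling. Over all probes, chip 1 alone gave 24 called probes for PDGF-BB against control and 3 for TGF-β2 against PDGF-BB, and leaving out each array gave 0 to 2 and 0 to 1, with calls only without control sample 1. The causes were not tested. At a detection p under 0.002, 0 members were detected on all arrays, as the smallest Odc1 signal had 0.00376. The replicate number as a block left the Odc1 differences at −0.37, −0.99 and 0.62 (limma adjusted p = 1, 0.616 and 0.673) and called 0 probes. Deviations of samples with the same number correlated over 0.1 in 7 of 12 pairs (median 0.20), against 10 of 36 pairs with different numbers (median −0.07). Sample 3 also had the most detected probes of its group in control (1152), TGF-β2 (1506) and PDGF-BB (1070). As the labels name nothing shared, the main fit and the permutations did not pair the numbers. Whether samples of one number share an experiment was not tested, and pairing is not excluded by these correlations.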
